A study of Mus musculus with 12 samples.

Results

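Kidneys of mouse embryos labelled as double homozygous Hoxa and Hoxc mutants were compared with kidneys that kept a wild type chromosome for the Hoxa genes on the same Hoxc mutant background. The libraries were chosen by their genotype labels: 3 Hoxa-/- Hoxc-/- libraries, called double mutants (24, 27 and 29), and 3 Hoxa+/- Hoxc-/- libraries (AC38, AC110 and AC115), which are 6 of the 12 in all. RNA from whole kidneys at E18.5 was sequenced, and the values analysed were expected counts per gene. The comparison addresses what differs when more Hoxa alleles are mutant on a Hoxc mutant background.

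Both groups carried frameshift mutations of Hoxc9, Hoxc10 and Hoxc11 on both chromosomes. By the labels, Hoxa9, Hoxa10 and Hoxa11 were mutant on a single chromosome in Hoxa+/- Hoxc-/- kidneys and on both in double mutants. The study's own text instead describes its sequenced double mutants as Hoxa11+/- or Hoxa11+/+, and finds no kidneys at this age in embryos homozygous mutant for Hoxa11 as well. By that text a wild type Hoxa11 allele remained in the double mutants. Libraries are not told apart there, so the 3 were kept as 1 group. The remaining 6 libraries served only for values side by side: 3 were wild type (30, 37 and 55) and 3 were Hoxa-/- Hoxc+/- (20, 31 and 33), with the Hoxa genes mutant on both chromosomes and the Hoxc genes on a single chromosome. The frameshifts lie in first exons and remove no whole gene, so RNA levels of the targeted genes do not check the labels. Whole kidneys mix all cell types of the organ, and in such bulk RNA fewer cells of a type and less RNA per cell cannot be told apart. The libraries carry separate numbers, but nothing says whether they came from separate litters, so p-values measure the spread between these libraries.

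The Hoxa+/- Hoxc-/- libraries were the only ones from the sequencing run labelled run1646, while the double mutants and the 6 other libraries came from run1008. Genotype and run therefore coincided here and cannot be told apart, and neither run gives a value of its own for the comparison. For that reason double mutants are also shown against wild type and against Hoxa-/- Hoxc+/-, both within run1008. These contrasts share the double mutant libraries and are given side by side only. Levels are given as CPM, counts scaled to the size of each library. Total counts were 39352856, 40151311 and 36951243 in the double mutants and 33106649, 47067903 and 46399578 in Hoxa+/- Hoxc-/-. At this depth 3 counts in each library, the floor used here, corresponded to 0.0792 CPM in double mutants and 0.0705 CPM in Hoxa+/- Hoxc-/-, which covers counting error only.

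Markers of the main parts of a kidney were present in all 6 libraries. The podocyte gene Nphs1, which encodes nephrin, ranged from 68.8 to 114 CPM, and the proximal tubule phosphate transporter gene Slc34a1 from 421 to 1085 CPM. Umod, of the loop of Henle, ranged from 140.1 to 482 CPM, the distal cotransporter gene Slc12a3 from 59.1 to 161 CPM and the collecting duct water channel gene Aqp2 from 161 to 242 CPM. Of neighbouring tissues, the liver gene Alb ranged from 2.17 to 24.7 CPM and the skeletal muscle gene Ckm from 0 to 0.894 CPM. The adrenal gene Th ranged from 0.0416 to 1.37 CPM and the fat cell gene Adipoq from 0 to 0.384 CPM. Other markers of these tissues were higher. Summed over its list, liver was at 72.4 to 157 CPM and adipose at 216 to 284 CPM. Nearly all of the adipose sum was Fabp4, whose values are given below, so that sum says little of the list's other members. Skeletal muscle summed to 4.37 to 16.4 CPM and adrenal to 5.52 to 14.7 CPM. Sex differed among the libraries within each group. Xist, the RNA of the inactive X chromosome, was at 0.105, 72.8 and 60.0 CPM in double mutants 24, 27 and 29 and at 0.0586, 336 and 0.104 CPM in Hoxa+/- Hoxc-/- AC38, AC110 and AC115, the order used throughout. The Y-linked gene Ddx3y was at 82.4, 0 and 0.0823 CPM and 62.6, 0 and 54.3 CPM in the same order, and Uty, Kdm5d and Eif2s3y followed it, each above 26 CPM in libraries 24, AC38 and AC115 and at or below 0.110 CPM in the 3 others. Female libraries were thus 27 and 29 among double mutants and AC110 among Hoxa+/- Hoxc-/-, and of the 5 sex-linked genes 0 passed the threshold by edgeR, at an unadjusted p under 0.05 or by DESeq2 (median log2 fold change -1.0).

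The first principal component over 14223 genes carried 40.1% of the variance and set Hoxa-/- Hoxc+/- 20 apart at 82.5. The second carried 21.8% and separated the groups compared, with double mutants between 24.7 and 36.3 and Hoxa+/- Hoxc-/- between -32.0 and -24.3.

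**Figure D1:**
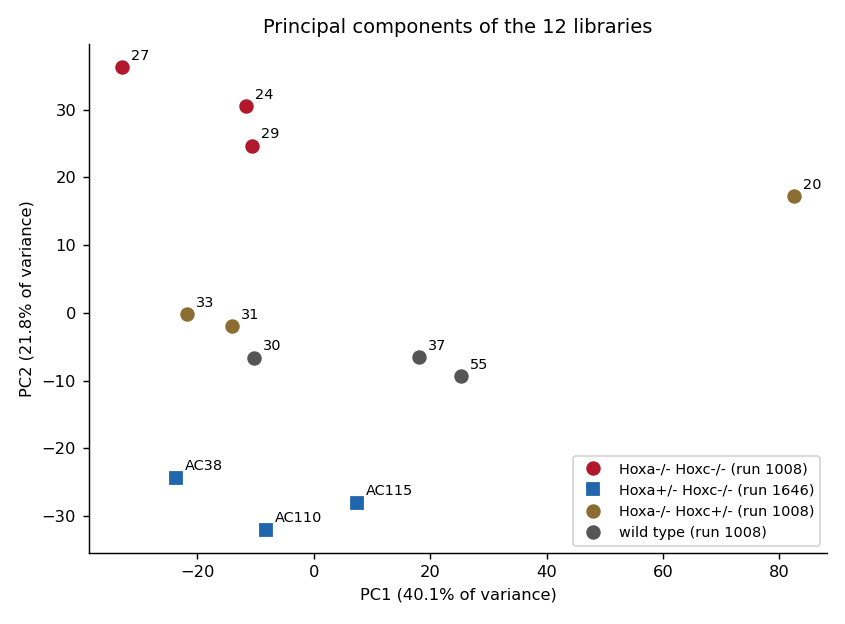
Scores of the 12 libraries on the first and second principal component of log2 CPM over 14223 genes, with 1 point per library, coloured by genotype. Double mutants lie at the top (24.7 to 36.3 on the second component) and Hoxa+/- Hoxc-/- libraries, the only ones of run1646, at the bottom (-32.0 to -24.3).

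Hox genes encode homeodomain transcription factors that pattern the body axis, and Hox10 and Hox11 paralogs act redundantly in the metanephric kidney. In that organ, cap mesenchyme cells renew themselves or form nephrons, and they secrete GDNF, which acts on the RET receptor at the tips of the branching ureteric bud. Stromal fibroblasts lie between these structures and lay down the collagens, proteoglycans and elastic fibres of the interstitial matrix.

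The targeted genes were transcribed in every library. Hoxa9 was at 26.6, 25.9 and 23.9 CPM in double mutants and 29.6, 32.1 and 31 CPM in Hoxa+/- Hoxc-/-, beside 40.4, 26.8 and 27 CPM in Hoxa-/- Hoxc+/- 20, 31 and 33 and 24.3, 24.4 and 26.4 CPM in wild type 30, 37 and 55. Hoxa10 was at 101, 104 and 111 CPM, 112, 104 and 114 CPM, 152, 104 and 107 CPM and 125, 152 and 164 CPM in the groups in that order, and Hoxa11 at 37.2, 38.3 and 52.8 CPM, 53.8, 61.5 and 52.9 CPM, 42.8, 52.0 and 52.1 CPM and 44.1, 52.8 and 59.7 CPM. Hoxa9 was lower in every double mutant than in every Hoxa+/- Hoxc-/- library (log2 fold change -0.30 ± 0.08 SE, adjusted p = 0.0365), a call lost without library 24, 27, 29, AC110 or AC115 (adjusted p = 0.081, 0.0646, 0.0969, 0.173 and 0.105). The groups overlapped for Hoxa10 (-0.09, adjusted p = 0.441), and although they did not for Hoxa11, it missed the threshold (-0.41, adjusted p = 0.0836) and passed without library 29 (adjusted p = 0.0164). Among the Hoxc genes, mutant on both chromosomes in both groups, Hoxc9 was at 11.1, 10.6 and 10.4 CPM in double mutants and 9.14, 11.0 and 13.9 CPM in Hoxa+/- Hoxc-/-, beside 32.4, 11.7 and 12.6 CPM in Hoxa-/- Hoxc+/- and 11.3, 11.7 and 15.6 CPM in wild type. Hoxc10 was at 37.9, 29.1 and 35.7 CPM, 32.0, 36.6 and 51.7 CPM, 119.6, 45.5 and 41.5 CPM and 50.1, 58.9 and 66.9 CPM in the same order of groups, and Hoxc11 at 1.05, 0.894 and 1.24 CPM, 1.11, 1.49 and 2.02 CPM, 2.91, 1.57 and 1.32 CPM and 1.56, 1.60 and 1.83 CPM. None of these 3 genes passed the threshold between double mutants and Hoxa+/- Hoxc-/- (adjusted p = 0.653, 0.359 and 0.21).

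The paralogs that were not targeted showed small differences. Hoxd11 was at 32.7, 34.0 and 31.6 CPM in double mutants and 36.5, 42.0 and 49.2 CPM in Hoxa+/- Hoxc-/-, without overlap (log2 fold change -0.40 ± 0.11, adjusted p = 0.0418), and lost its call without library 24, 27, 29, AC110 or AC115 (adjusted p = 0.122, 0.0767, 0.101, 0.143 and 0.12). Hoxb9 (log2 fold change -0.14), Hoxd9 (-0.01) and Hoxd10 (-0.05) overlapped between the groups and had adjusted p from 0.607 to 0.974. In all, 0 of the 10 Hox9 to Hox11 paralogs tested were higher past the threshold and 2 were lower, Hoxa9 and Hoxd11, with a median log2 fold change of -0.20. The count was 0 without library 24, 27, AC110 or AC115, 1 without library 29, the 1 without library 29 being Hoxa11, and 1 with GC content and exon length corrected for (the GC correction). Against wild type the paralogs' median was -0.22, and against Hoxa-/- Hoxc+/- -0.30. The latter group includes library 20, set apart on the first principal component. Summed over the paralogs, Hoxa-/- Hoxc+/- 20, 31 and 33 were at 856, 460 and 459 CPM, beside 448, 454 and 476 CPM in double mutants. Libraries 31 and 33 thus lay within the double mutant range.

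Across all genes, 3027 of 15889 tested (19.1%) differed between double mutants and Hoxa+/- Hoxc-/- at an adjusted p under 0.05 (edgeR quasi-likelihood test with Benjamini-Hochberg adjustment), and 5534 had an unadjusted p under 0.05. DESeq2 called 3958 of the 15889. List counts by DESeq2 or at an unadjusted p under 0.05 stand beside these totals. Of the 3027 calls 1213 were higher in double mutants (7.63% of genes tested) and 1814 lower (11.4%), around a median log2 fold change of -0.00 over all genes. These shares of all genes stand beside the counts of every gene list below. The lists were chosen with earlier results of these data known, so their counts are descriptions only. Higher genes made up 40.1% of the calls, and 28.1% (884 of 3143) when libraries were scaled by their total counts alone. A fold change above 2 was reached by 522 called genes (3.29%), 218 higher and 304 lower. The 2 groups did not overlap for 40.3% of the genes tested and for 3024 of the 3027 called. Leaving out a library, which also makes its group smaller, changed the count. It was 1177 without double mutant 24, 888 without Hoxa+/- Hoxc-/- AC110 and 1722 without Hoxa+/- Hoxc-/- AC115. In the same 3 fits 447, 312 and 733 genes were higher and 730, 576 and 989 lower. Without double mutant 27 the number higher was 796, and without Hoxa+/- Hoxc-/- AC110 the number called with a fold change above 2 was 290. In all, 2055 genes were called without double mutant 27, 2199 without 29 and 3441 without Hoxa+/- Hoxc-/- AC38. List counts without a library stand beside the total of the same fit.

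Which group stood apart was described over all 12 libraries. The 3 double mutants lay beyond all 9 other libraries, in the direction of the comparison, for 12.7% of the genes tested and for 1250 called genes (41.3% of calls), 469 of them higher and 781 lower. The 3 Hoxa+/- Hoxc-/- libraries lay beyond the 9 others for 9.31% of the genes tested and for 947 called genes (31.3% of calls), 480 higher and 467 lower in double mutants. Both held for 146 called genes and neither for 976. With Hoxa-/- Hoxc+/- 20 left out of these counts, double mutants stood apart for 1840 called genes and Hoxa+/- Hoxc-/- for 1028. When Hoxa+/- Hoxc-/- stood apart, genotype and run could not be told apart. Within run1008, double mutants against wild type gave 2171 called genes of 15839 (13.7%), 999 higher and 1172 lower. Double mutants against Hoxa-/- Hoxc+/- gave 0 of 15764 (0%) by edgeR, with 1787 genes at an unadjusted p under 0.05 and 554 called by DESeq2. Without Hoxa-/- Hoxc+/- 20 that contrast had 687 called genes of 15986, 389 higher and 298 lower. List medians against Hoxa-/- Hoxc+/- include library 20. Across the runs, Hoxa+/- Hoxc-/- against wild type gave 376 called genes of 15902 (2.36%), 133 higher and 243 lower.

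Hox genes outside the Hox9 to Hox11 groups, which were not targeted, were lower in double mutants where they differed. Of 23 tested (29 measured), 0 were higher past the threshold and 9 lower, with a median log2 fold change of -0.43. The largest falls were in Hoxd4 and Hoxd3, neighbouring genes of the Hoxd cluster on chromosome 2. Hoxd4 was at 2.33, 2.27 and 3.07 CPM in double mutants and 10.9, 10.1 and 10.4 CPM in Hoxa+/- Hoxc-/-, and Hoxd3 at 5.61, 5.75 and 6.42 CPM and 19.3, 19.2 and 24.1 CPM in the same order. No double mutant reached any Hoxa+/- Hoxc-/- library for either gene, nor any of the 6 libraries of the other genotypes, which had 5.53 to 8.26 CPM of Hoxd4 in Hoxa-/- Hoxc+/- and 7.71 to 10.9 CPM in wild type. The log2 fold change was -2.06 ± 0.16 for Hoxd4 (adjusted p = 7.4e-04) and -1.84 ± 0.14 for Hoxd3 (adjusted p = 6.0e-04). Against wild type, within run1008, the values were -1.86 (adjusted p = 0.00288) and -1.67 (adjusted p = 0.00176), while over the list 2 genes were higher and 4 lower (median -0.20). For Hoxa+/- Hoxc-/- against wild type the list's median was 0.19. Hoxb3 stood apart in the same way, at 29.3, 31.4 and 27.3 CPM in double mutants and 59.5, 64.6 and 67.7 CPM in Hoxa+/- Hoxc-/- (log2 fold change -1.15 ± 0.08, adjusted p = 5.7e-04). In Hoxa6 it was the Hoxa+/- Hoxc-/- libraries that stood apart, at 2.73, 3.73 and 3.95 CPM, against 1.89, 1.51 and 1.95 CPM in double mutants and 1.85 to 2.38 CPM in wild type. Its call (-0.99, adjusted p = 0.0219) was lost without library 24, 27, AC110 or AC115 (adjusted p = 0.0691, 0.0585, 0.0994 and 0.0771). Of the 9 genes past the threshold, double mutants were apart from all others in 5 and Hoxa+/- Hoxc-/- in 1. The number called was 5 without library 24, 4 without library 27, AC110 or AC115.

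Promoters of Hoxd3 and Hoxd4 are shown because these neighbouring genes fell together. Each window runs from 250 bases before to 50 bases after the gene's start (RefSeq, GRCm38.p6), 5′ to 3′ on the plus strand for both, at chr2:74711743-74712042 and chr2:74721728-74722027. Capitals mark the letters TTTAT or their reverse complement ATAAA, an AT-rich core bound by posterior HOX proteins, which also overlaps the letters of a TATA box. The motif occurred 1 time in the Hoxd3 window and 6 times in the Hoxd4 window, and at least once in 13143 of 32851 promoters of the same length (40.0%). A match describes the letters only.
Hoxd3: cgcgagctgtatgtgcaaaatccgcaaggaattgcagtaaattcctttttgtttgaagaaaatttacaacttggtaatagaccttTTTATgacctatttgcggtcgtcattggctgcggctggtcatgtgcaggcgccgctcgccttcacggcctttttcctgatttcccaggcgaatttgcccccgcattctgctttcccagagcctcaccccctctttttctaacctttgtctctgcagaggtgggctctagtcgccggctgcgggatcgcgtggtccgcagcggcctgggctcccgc
Hoxd4: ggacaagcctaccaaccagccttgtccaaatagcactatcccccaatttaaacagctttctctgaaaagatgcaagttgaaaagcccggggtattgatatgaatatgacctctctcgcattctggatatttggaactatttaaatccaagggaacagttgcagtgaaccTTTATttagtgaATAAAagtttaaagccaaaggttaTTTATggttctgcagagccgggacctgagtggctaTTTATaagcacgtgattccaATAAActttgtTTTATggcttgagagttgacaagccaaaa

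Of the nephron progenitor genes, 3 were lower in double mutants. Gdnf, the growth factor of the cap mesenchyme, was at 10.7, 6.31 and 14.8 CPM in double mutants and 24.7, 31.5 and 33.1 CPM in Hoxa+/- Hoxc-/-. Each double mutant was below each Hoxa+/- Hoxc-/- library and below the 6 libraries of the other genotypes (log2 fold change -1.52 ± 0.28, adjusted p = 0.012), and the call was lost without library 24 or AC110 (adjusted p = 0.054 and 0.0567). Pax2, a transcription factor of the cap mesenchyme and ureteric bud, was at 80.5, 58.7 and 106 CPM and 134, 165 and 165 CPM in the same order (-0.95, adjusted p = 0.0185). Sall1, a zinc finger gene needed for progenitor maintenance, was at 132, 91.9 and 148 CPM and 188, 228 and 217 CPM (-0.79, adjusted p = 0.0187). Both were lower in every double mutant. Their calls were lost for Pax2 without library 24, AC110 or AC115 (adjusted p = 0.0743, 0.0823 and 0.0607) and for Sall1 without library 24, AC110 or AC115 (adjusted p = 0.0622, 0.087 and 0.0606). Six2, which keeps these cells undifferentiated, varied among double mutants at 28.0, 13.2 and 58.3 CPM, against 62.3, 86.1 and 79.9 CPM in Hoxa+/- Hoxc-/-, and missed the threshold (-1.22, adjusted p = 0.101). Eya1, a cofactor of Six2, showed the same spread, with 14.4, 8.04 and 35.3 CPM and 37.1, 51.3 and 43.1 CPM (-1.21, adjusted p = 0.109). Cited1, a marker of the earliest progenitors, was at 11.6, 10.3 and 26.5 CPM and 25.3, 34.0 and 28.9 CPM (-0.89, adjusted p = 0.109). In all 3 of these genes double mutant 29 was the highest of its group, and without it Six2, Eya1 and Cited1 passed the threshold (adjusted p = 0.0165, 0.0109 and 0.00655). Cited1 also passed by DESeq2. Of 14 cap mesenchyme genes tested, 0 were higher and 3 lower past the threshold, with a median log2 fold change of -0.66, beside -0.74 against wild type and -0.16 for Hoxa+/- Hoxc-/- against wild type. The count was 0 without library 24 or AC110, 9 without library 29, 1 without library AC115.

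The ureteric tip, which receives GDNF, had 8 calls. Ret, its receptor, was at 9.62, 7.38 and 17.3 CPM in double mutants and 24, 29.3 and 27.4 CPM in Hoxa+/- Hoxc-/-, beside 36.4 to 41.0 CPM in wild type. All double mutants lay below all other libraries (log2 fold change -1.26 ± 0.29, adjusted p = 0.0237). The transcription factor gene Myb was at 4.64, 3.58 and 4.94 CPM and 5.83, 8.82 and 9.37 CPM (-0.90, adjusted p = 0.0292), and Mycn, a regulator of proliferation, was at 30.1, 22.1 and 43.1 CPM and 50.9, 57.6 and 64.9 CPM (-0.89, adjusted p = 0.0322). None of these 3 genes overlapped between the groups. Calls were lost for Ret without library 24, AC110 or AC115 (adjusted p = 0.0919, 0.0941 and 0.0659), for Myb without library 24, 27, AC110 or AC115 (adjusted p = 0.085, 0.0774, 0.122 and 0.0974) and for Mycn without library 24, 27, AC110 or AC115 (adjusted p = 0.112, 0.052, 0.108 and 0.0996). Of 16 tip genes tested, 0 were higher and 8 lower, with a median of -0.66, and double mutants were apart from all 9 other libraries in 7 of the 8. Against wild type 11 were lower (median -0.67), and for Hoxa+/- Hoxc-/- against wild type the median was -0.18. The number called was 1 without library 24, 4 without library 27, 0 without library AC110, 2 without library AC115, and 14 by DESeq2.

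Early nephrons form from these progenitors, and 3 of their genes were lower. Lhx1, a homeobox gene of the renal vesicle, was at 36.2, 26.2 and 34.7 CPM in double mutants and 47.2, 55.3 and 59.6 CPM in Hoxa+/- Hoxc-/- (log2 fold change -0.76 ± 0.14, adjusted p = 0.0111), with a call lost without library AC110 (adjusted p = 0.0596). Fgf8, a growth factor of the same stage, was at 4.32, 2.60 and 4.97 CPM and 6.92, 6.39 and 8.73 CPM (-0.91, adjusted p = 0.0435), and Pax8, which acts with Pax2, at 119, 98.4 and 104 CPM and 127, 138 and 143 CPM (-0.36, adjusted p = 0.0312). All 3 genes were lower in every double mutant, and they were the 3 lower and 0 higher among 13 tested (median -0.19). Calls were lost for Fgf8 without library 24, 27, AC38, AC110 or AC115 (adjusted p = 0.107, 0.0653, 0.0586, 0.0997 and 0.132) and for Pax8 without library 27, 29, AC110 or AC115 (adjusted p = 0.0791, 0.084, 0.13 and 0.104). The list's count was 1 without library 27 or AC115, 0 without library AC110, and 6 by DESeq2. In the Notch pathway, which directs nephron segments, 0 of 20 tested (21 measured) were higher and 3 lower (11.4% over all genes; median -0.20), with 6 called by DESeq2 and 10 at an unadjusted p under 0.05: the receptor genes Notch1 (-0.52, adjusted p = 0.0361) and Notch4 (-0.46, adjusted p = 0.0053) and the coactivator gene Maml3 (-0.50, adjusted p = 0.00708). Notch4 was at 34.6, 35.5 and 33.3 CPM in double mutants and 44.9, 47.5 and 47.2 CPM in Hoxa+/- Hoxc-/-, and wild type at 37.4 to 38.5 CPM lay nearer the double mutants. Maml3, at 34.0, 38.9 and 38.4 CPM and 50.4, 54.0 and 50.7 CPM in the same order, also had the run1646 libraries apart from the 9 others, so that run and genotype cannot be told apart for these 2 calls. Notch4 lost its call with the GC correction, and Maml3 with all 12 libraries in the fit (adjusted p over the alternatives from 1.4e-05 to 0.0599 and from 4.1e-05 to 0.103). Notch1 lost its call without library 24, 27, 29, AC110 or AC115 (adjusted p = 0.116, 0.0889, 0.0769, 0.154 and 0.12), and without library AC38 the number called was 6.

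Of 30 cell cycle genes tested 4 were lower in double mutants, a share near the 11.4% over all genes. Cenpe, a kinetochore motor, was at 39.2, 34.9 and 41.8 CPM in double mutants and 59.4, 87.1 and 84.4 CPM in Hoxa+/- Hoxc-/-, and no double mutant reached any other library (log2 fold change -1.02 ± 0.15, adjusted p = 0.00537). Mki67, which codes for the proliferation marker Ki-67, was at 132, 134 and 155 CPM and 193, 334 and 391 CPM (-1.15, adjusted p = 0.0161), and Cenpf, another kinetochore gene, at 60.8, 50.5 and 59.5 CPM and 78.1, 116 and 127 CPM (-0.93, adjusted p = 0.0115). With Foxm1, a transcription factor of dividing cells (-0.53, adjusted p = 0.0368), these were the 4 lower genes, and 0 were higher (median -0.28, against -0.40 for double mutants against wild type). Calls were lost for Mki67 without library 24, 27 or AC110 (adjusted p = 0.07, 0.0516 and 0.0735), for Cenpf without library AC110 (adjusted p = 0.0602) and for Foxm1 without library 24, 27, AC110 or AC115 (adjusted p = 0.0906, 0.0591, 0.148 and 0.119), and the number called was 2 without library 24 or 27, 1 without library AC110.

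**Figure D2:**
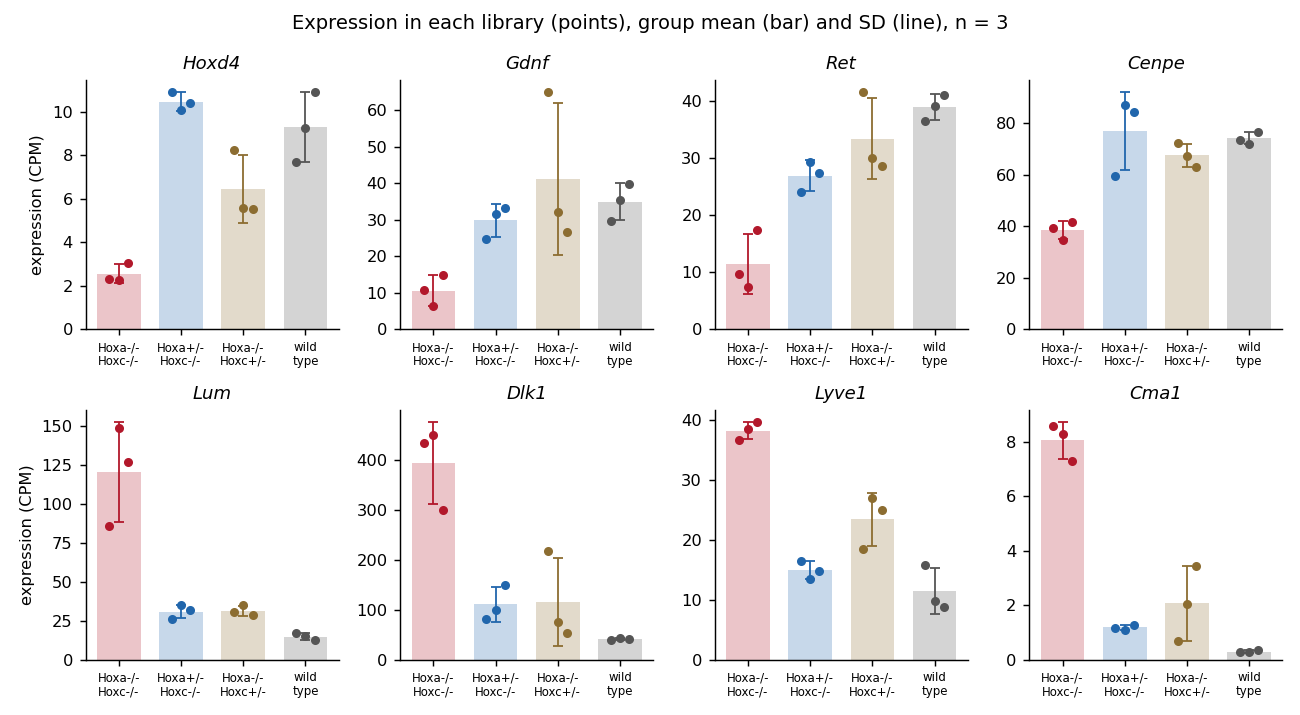
CPM of Hoxd4, Gdnf, Ret, Cenpe, Lum, Dlk1, Lyve1 and Cma1 in each of the 12 libraries, with points for libraries, a bar for the mean and whiskers for the SD over 3 libraries. Double mutants lie below all other libraries in the first 4 genes and above all of them in the last 4.

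Small leucine-rich proteoglycans, which bind collagen and space its fibrils, had the highest median of the matrix lists. Lum, which encodes lumican, was at 86.0, 149 and 127 CPM in double mutants and 26.3, 34.8 and 31.6 CPM in Hoxa+/- Hoxc-/-, and each double mutant exceeded each other library of the 12 (log2 fold change 1.94 ± 0.20, adjusted p = 0.00196). Dcn, which encodes decorin, was at 348, 512 and 367 CPM and 113, 118 and 133 CPM (1.73, adjusted p = 0.00122), and Prelp at 34.3, 47.4 and 39.4 CPM and 10.9, 8.95 and 13.2 CPM (1.85, adjusted p = 0.00132). Kera, the keratocan gene of corneal stroma, was near the floor in Hoxa+/- Hoxc-/- at 0, 0.123 and 0.249 CPM and at 1.23, 1.56 and 1.84 CPM in double mutants (3.49, adjusted p = 0.0119), with a call lost without library AC110 (adjusted p = 0.0625). The other 3 genes passed in all 6 fits that left out a library. Of 10 tested (11 measured), 8 were higher and 0 lower, with a median log2 fold change of 1.55. The median was 1.43 against wild type and 1.17 against Hoxa-/- Hoxc+/-, within run1008, and 0.31 for Hoxa+/- Hoxc-/- against wild type. Across the runs, Lum was above wild type (12.3 to 16.9 CPM) in Hoxa+/- Hoxc-/- (1.08, adjusted p = 0.0196), while Dcn was not past the threshold there (0.34, adjusted p = 0.107). Genotype and run cannot be told apart in that contrast.

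The promoter of Prelp is shown as a member of this group, in a window of the same length and with the same capitals as for Hoxd3 and Hoxd4 (RefSeq, GRCm38.p6). It lies at chr1:133921352-133921651 on the minus strand, and the letters TTTAT or ATAAA occurred 2 times. Of 6 genes looked up for these sequences, 4 were found, and Lum and Dcn are named only. The found gene not shown was Kera of the same group, whose window held 0 matches.
Prelp: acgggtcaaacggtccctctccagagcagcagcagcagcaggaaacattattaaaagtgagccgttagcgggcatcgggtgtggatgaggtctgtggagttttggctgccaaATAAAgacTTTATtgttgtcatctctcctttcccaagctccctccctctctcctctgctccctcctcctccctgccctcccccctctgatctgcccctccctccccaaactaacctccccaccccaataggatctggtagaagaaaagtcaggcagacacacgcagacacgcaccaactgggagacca

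Fibrillar collagens moved in both directions. Col1a1, an abundant fibril chain, was at 2898, 3187 and 3076 CPM in double mutants and 1041, 1724 and 1926 CPM in Hoxa+/- Hoxc-/- (0.94, adjusted p = 0.02), and Col5a3, a minor chain that starts fibrils, at 31.1, 25 and 17.6 CPM and 5.07, 6.16 and 12.9 CPM (1.58, adjusted p = 0.0238). The minor chain genes Col27a1, Col24a1 and Col11a2 went the other way. Col27a1 was at 12.9, 15.5 and 14.3 CPM in double mutants and 38.5, 44.0 and 42.2 CPM in Hoxa+/- Hoxc-/- (log2 fold change -1.57 ± 0.10, adjusted p = 3.6e-04), and Col24a1 at 3.70, 2.91 and 3.21 CPM and 6.48, 6.88 and 8.21 CPM (-1.16, adjusted p = 0.00504). Col11a2 was at 1.05, 0.204 and 1.21 CPM and 3.58, 4.91 and 3.66 CPM (-2.33, adjusted p = 0.021). None of these 5 genes overlapped between the groups. For Col27a1, both groups stood apart from wild type (29.7 to 31.8 CPM), on opposite sides. Of 11 fibrillar collagens tested, 6 were higher and 3 lower (median 0.58), and double mutants were apart from the 9 others in all 9 of these. The calls were lost for Col1a1 without library 24, 27 or AC110 (adjusted p = 0.0611, 0.0527 and 0.0658), for Col5a3 without library 24, 27 or AC110 (adjusted p = 0.0856, 0.0584 and 0.0966) and for Col11a2 without library 24, AC110 or AC115 (adjusted p = 0.063, 0.086 and 0.0506), and the count was 5 without library 24 or AC110.

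Other collagens and the basement membrane followed. Col6a6, a chain of the beaded filaments of collagen VI, was at 39.8, 52.7 and 36.4 CPM in double mutants and 7.30, 5.96 and 10.4 CPM in Hoxa+/- Hoxc-/- (log2 fold change 2.42 ± 0.23, adjusted p = 0.00133). Col6a5 was at 9.38, 10.8 and 4.94 CPM and 0.234, 1.49 and 2.58 CPM (2.49, adjusted p = 0.0348), a call lost without library 24, 27 or AC110 (adjusted p = 0.104, 0.0903 and 0.12). Of the genes for the main collagen VI chains, Col6a1 was at 688, 943 and 723 CPM and 403, 347 and 416 CPM (0.99, adjusted p = 0.00481) and Col6a2 was at 709.8, 1063 and 790.4 CPM and 443, 392 and 437 CPM (0.99, adjusted p = 0.00663). All 4 were higher in every double mutant than in any other library. Among 14 such collagens tested 6 were higher and 1 lower (median 0.61), against 10 higher and 0 lower with a median of 0.88 for double mutants against wild type. The 1 lower gene was Col9a3 (-0.94, adjusted p = 0.0251), named after its value was seen, and its call was lost without library 24, 27, AC110 or AC115 (adjusted p = 0.0893, 0.0625, 0.0634 and 0.0832). Of 22 basement membrane genes, 3 were higher and 0 lower (7.63% and 11.4% over all genes). Their median was 0.05, which became -0.01 when libraries were scaled by total counts alone. Lamb3, a laminin chain of epithelia, was at 4.35, 7.92 and 5.27 CPM in double mutants and 2.26, 2.70 and 2.14 CPM in Hoxa+/- Hoxc-/- (1.28, adjusted p = 0.0148). Lama2, a laminin chain of muscle and stroma (0.58, adjusted p = 0.0435), and Nid1, which links laminin to collagen IV (0.46, adjusted p = 0.021), were also higher without overlap. Their calls were lost for Lama2 without library 24, 27, 29, AC38 or AC110 (adjusted p = 0.107, 0.117, 0.058, 0.0737 and 0.148) and for Nid1 without library 24, 27 or AC110 (adjusted p = 0.0725, 0.0513 and 0.0965), and the list's count was 1 without library 24, 27 or AC110.

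Genes of elastic fibres and of crosslinking were higher in part. Lox, the enzyme that crosslinks collagen and elastin, was at 299, 380.3 and 266 CPM in double mutants and 147, 118 and 136 CPM in Hoxa+/- Hoxc-/- (log2 fold change 1.21 ± 0.15, adjusted p = 0.0032). Mfap5, a microfibril component, was at 45.9, 53.8 and 34.1 CPM and 16.2, 13.9 and 18.4 CPM (1.44, adjusted p = 0.00335), and Ltbp2, which binds fibrillin, at 5.29, 13.4 and 4.72 CPM and 1.17, 1.33 and 1.66 CPM (2.46, adjusted p = 0.00979), with a call lost without library AC110 (adjusted p = 0.0515). Double mutants exceeded all 9 other libraries in these 3 genes. Loxl2, a relative of Lox, was at 83.5, 86.3 and 122 CPM in double mutants and 220.2, 204 and 232 CPM in Hoxa+/- Hoxc-/- (log2 fold change -1.19 ± 0.15, adjusted p = 0.00351). Wild type had 90.5 to 106 CPM of Loxl2, and it was the run1646 libraries that stood apart. Eln itself overlapped, at 490.3, 524 and 363 CPM and 265, 315 and 475 CPM (0.36, adjusted p = 0.296), with Hoxa+/- Hoxc-/- AC115 the highest of its group. In this list 7 of 21 were higher and 1 lower (median 0.35), and the count was 3 without library AC110. Of 16 matricellular and adhesive matrix genes, 8 were higher and 0 lower (median 0.51). Postn, which encodes periostin, was at 398, 576 and 405 CPM in double mutants and 170.4, 166 and 225 CPM in Hoxa+/- Hoxc-/- (log2 fold change 1.27 ± 0.18, adjusted p = 0.00486). The tenascin gene Tnxb was at 27.7, 29.5 and 19.4 CPM and 3.99, 4.44 and 11.7 CPM (1.89, adjusted p = 0.0197). The CCN family gene Nov was at 5.71, 6.61 and 6.01 CPM and 2.64, 3.21 and 3.37 CPM (0.97, adjusted p = 0.00855), and the matrilin gene Matn2 at 139.8, 184 and 145 CPM and 87.0, 86.8 and 95.2 CPM (0.78, adjusted p = 0.00582). The double mutants were again above all others, Tnxb lost its call without library 24, 27 or AC110 (adjusted p = 0.0691, 0.0542 and 0.079), and the list's count was 4 without library AC110.

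Markers of renal stroma gave 3 calls. Of 16 tested, 3 were higher and 0 lower (7.63% and 11.4% over all genes), with a median log2 fold change of -0.03. Foxd1, the transcription factor of cortical stroma progenitors, was at 40.3, 40.1 and 35.2 CPM in double mutants and 28.6, 35.7 and 35.5 CPM in Hoxa+/- Hoxc-/- (0.19, adjusted p = 0.249). Tbx18, of ureteral and medullary mesenchyme, was at 7.23, 9.04 and 9.09 CPM and 5.16, 3.81 and 3.84 CPM (0.96, adjusted p = 0.0127), and the mesenchymal transcription factor gene Twist2 at 13.6, 18.8 and 14.2 CPM and 7.68, 7.88 and 8.52 CPM (0.93, adjusted p = 0.00822). The growth factor receptor gene Pdgfra was at 292, 377 and 355 CPM and 235, 227 and 247 CPM (0.51, adjusted p = 0.0183). In these 3 genes every double mutant was above every other library, whereas Foxd1 overlapped. Calls ended for Tbx18 without library AC110 (adjusted p = 0.059) and for Pdgfra without library 29 or AC110 (adjusted p = 0.0533 and 0.0823), and the number called was 6 without library AC38, 1 without library AC110. Outside this list, genes named for a large fitted rise with double mutants apart included Apod and Medag. Apod, a lipid carrier gene, was at 1.89, 1.15 and 1.45 CPM and 0.205, 0.164 and 0.145 CPM (3.10, adjusted p = 0.00225). Medag was at 3.46, 3.78 and 2.80 CPM and 0.293, 0.450 and 0.686 CPM (2.76, adjusted p = 0.00273). Lrrn4, a marker of mesothelium, was at 1.86, 8.40 and 3.60 CPM and 0.352, 0.123 and 0.582 CPM (3.68, adjusted p = 0.0128), highest in double mutant 27, with a call lost without library AC110 (adjusted p = 0.0528).

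In the BMP pathway 4 of 19 genes were higher and 1 lower (7.63% and 11.4% over all genes; median -0.03). Fst, the secreted activin and BMP antagonist follistatin, was at 6.42, 5.31 and 4.47 CPM in double mutants and 1.55, 0.860 and 1.52 CPM in Hoxa+/- Hoxc-/- (log2 fold change 2.02 ± 0.28, adjusted p = 0.00444). Bmp5, a ligand gene, was at 3.93, 7.23 and 6.72 CPM and 1.82, 1.97 and 2.18 CPM (1.56, adjusted p = 0.00818). Both were above all 9 other libraries in every double mutant. The target gene Id4 (0.46, adjusted p = 0.0304) and the receptor gene Bmpr1a (0.28, adjusted p = 0.0421) were higher by less. Calls were lost for Id4 without library 24, 27, 29, AC38 or AC110 (adjusted p = 0.0735, 0.0813, 0.0654, 0.051 and 0.118) and for Bmpr1a without library 24, 29, AC38, AC110 or AC115 (adjusted p = 0.134, 0.118, 0.0519, 0.116 and 0.107). The lower gene was the inhibitory Smad6 (-0.24, adjusted p = 0.05), just under the threshold before rounding, named after its value was seen, with a call lost when any 1 library was left out. The list's count was 2 without library 24, 29 or AC110, 3 without library 27, AC38 or AC115, and 3 with the GC correction. In the TGF-beta pathway 0 of 12 were higher and 1 lower (7.63% and 11.4% over all genes; median 0.15). The lower gene was the inhibitory Smad7 (-0.49, adjusted p = 0.0146), whose call was lost without library 24, AC110 or AC115 (adjusted p = 0.0627, 0.0735 and 0.0503). Of 16 retinoic acid genes tested (17 measured), 0 were higher and 1 lower (7.63% and 11.4% over all genes; median -0.12). The lower gene was the receptor gene Rara (-0.29, adjusted p = 0.0355), and the call was lost without library 24, 29, AC38, AC110 or AC115 (adjusted p = 0.125, 0.0948, 0.0507, 0.104 and 0.113). The list counts were 0 without library 24, AC110 or AC115, 2 without library 29, 3 by DESeq2 and 2 with the GC correction in TGF-beta, and 0 without library 24, AC110 or AC115 and 4 by DESeq2 in retinoic acid.

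The IGF system and imprinted genes held calls in both directions. Igf1, a growth factor of stromal cells, was at 94.0, 125 and 69.9 CPM in double mutants and 31.8, 32.7 and 39.5 CPM in Hoxa+/- Hoxc-/- (log2 fold change 1.45 ± 0.20, adjusted p = 0.00468). The receptor gene Igf1r was lower (-0.43, adjusted p = 0.0107), with the run1646 libraries at 186, 214 and 212 CPM apart from the 9 others. The call was lost with the GC correction (adjusted p from 9.9e-05 to 0.138 over the alternatives). Igfbp6 (0.87, adjusted p = 0.0277) and Igfbp5 (-0.43, adjusted p = 0.0232), which code for IGF-binding proteins, went in opposite directions. In the list 3 of 11 were higher and 2 lower (median 0.11). The calls were lost for Igf1r without library 24 or AC110 (adjusted p = 0.052 and 0.0696), for Igfbp6 without library 24, 27 or AC110 (adjusted p = 0.0879, 0.0532 and 0.107) and for Igfbp5 without library 24, 27, AC110 or AC115 (adjusted p = 0.0949, 0.055, 0.0823 and 0.0802), and the count was 2 without library 24, 3 without library 27, 1 without library AC110. Dlk1, a paternally expressed gene for a membrane protein of the Notch ligand type, was at 432, 449 and 299.6 CPM in double mutants and 81.6, 99.8 and 149.7 CPM in Hoxa+/- Hoxc-/-, with 216, 75.1 and 54.0 CPM in Hoxa-/- Hoxc+/- and 39.1, 44.0 and 40.4 CPM in wild type. Every double mutant exceeded every other library (log2 fold change 1.81 ± 0.24, adjusted p = 0.00425). Hoxa+/- Hoxc-/- exceeded wild type (1.43, adjusted p = 0.0216), a contrast in which genotype and run cannot be told apart. Rtl1, from the same imprinted region of chromosome 12, was at 4.19, 3.17 and 1.98 CPM and 0.616, 0.942 and 0.997 CPM (1.83, adjusted p = 0.0114), a call lost without library AC110 (adjusted p = 0.0515). Meg3, the maternally expressed long RNA of that region, was at 4.67, 6.26 and 4.56 CPM in double mutants and 20.8, 20.1 and 25.7 CPM in Hoxa+/- Hoxc-/- (log2 fold change -2.13 ± 0.17, adjusted p = 7.4e-04), with wild type between them at 7.61 to 10.4 CPM. Across the region 2 of 7 were higher and 1 lower (median 0.08). Of 12 other imprinted growth genes 2 were higher and 0 lower (median 0.26). Cdkn1c, a cell cycle inhibitor gene, was at 1144, 1016 and 1064 CPM and 558, 688 and 710.3 CPM (0.70, adjusted p = 0.00623), a call lost with all 12 libraries in the fit (adjusted p from 8.4e-08 to 0.114 over the alternatives). The other was Sgce (0.39, adjusted p = 0.0406), whose call was lost without library 24, 27, 29, AC38 or AC110 (adjusted p = 0.111, 0.096, 0.0803, 0.0727 and 0.15). Their count was 1 without library 24, 27, 29 or AC110, 4 without library AC115, and 4 by DESeq2.

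**Figure D3:**
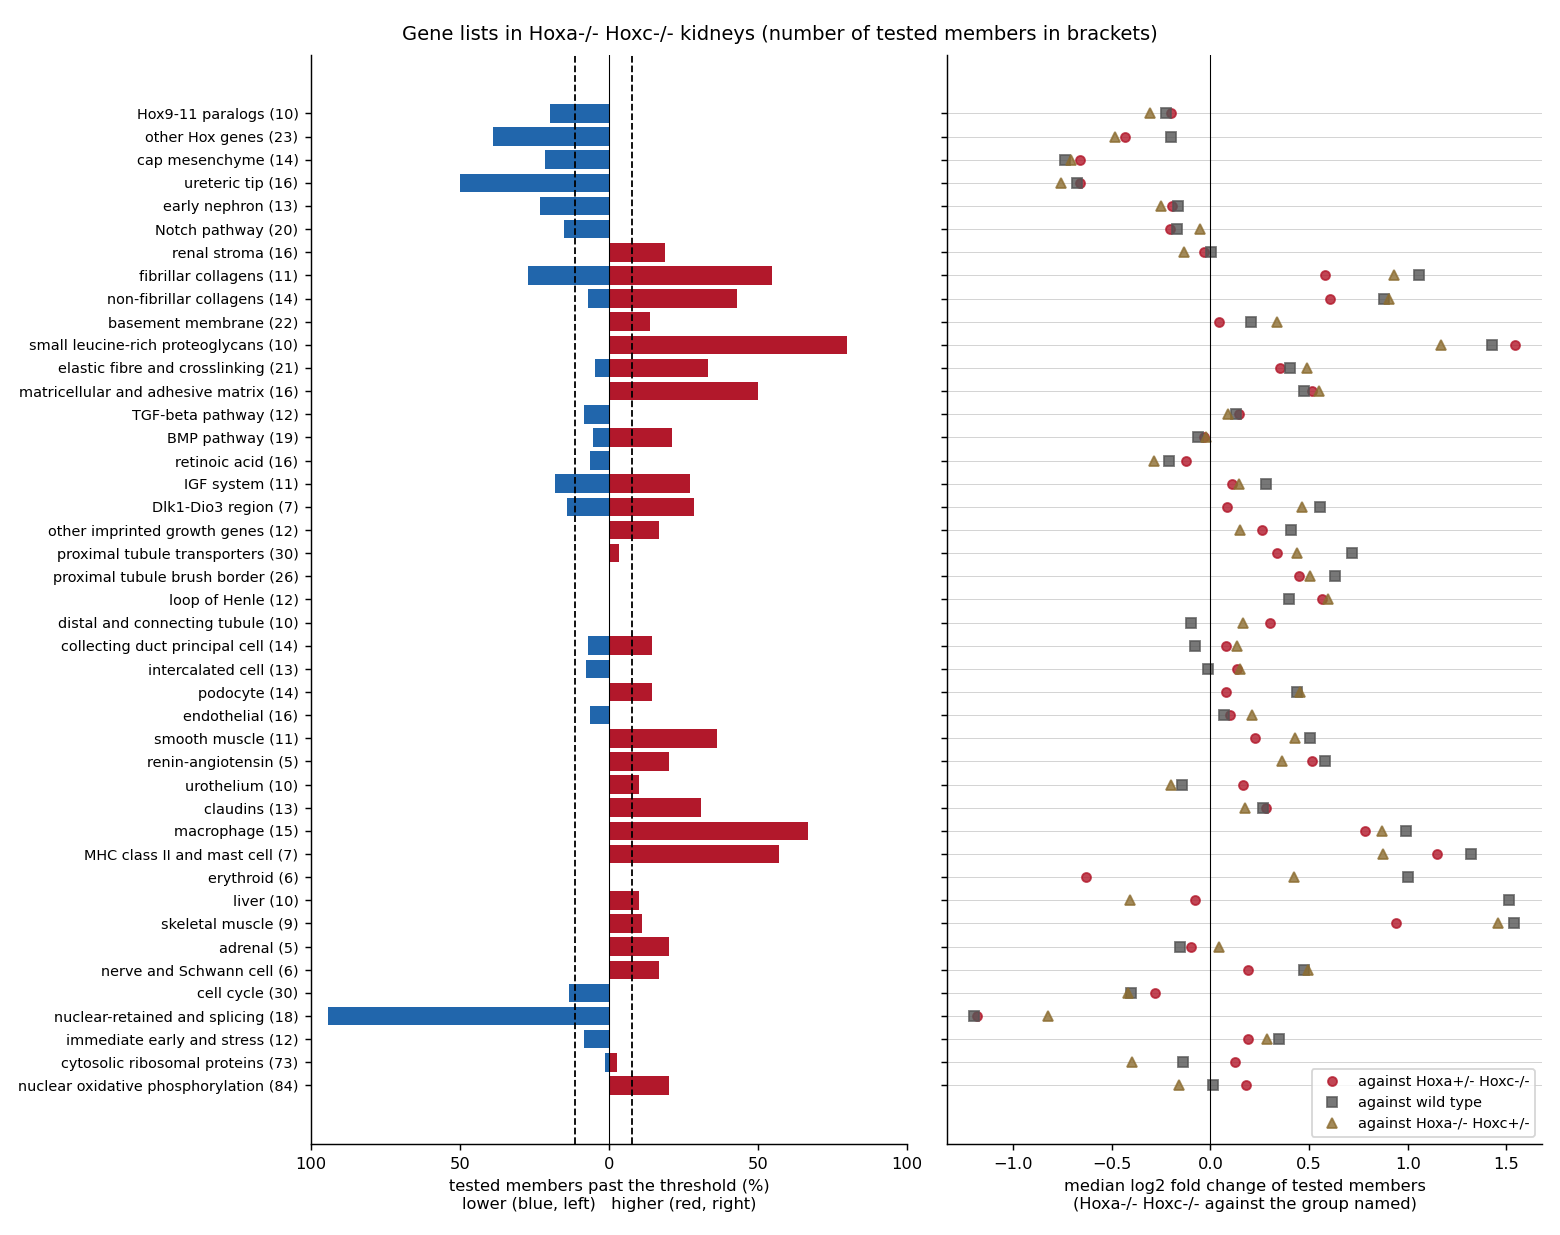
Left, percent of tested members of each gene list that were higher or lower past the threshold in double mutants against Hoxa+/- Hoxc-/-, with dashed lines at the share over all genes tested (7.63% higher, 11.4% lower). Right, median log2 fold change of each list for double mutants against Hoxa+/- Hoxc-/-, wild type and Hoxa-/- Hoxc+/-. The nuclear-retained list has a median of -1.18 and the small leucine-rich proteoglycans 1.55 in the first contrast.

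Most markers of macrophages were higher in double mutants. Lyve1, a hyaluronan receptor of resident macrophages and lymphatic vessels, was at 36.7, 38.4 and 39.6 CPM in double mutants and 16.5, 13.5 and 14.8 CPM in Hoxa+/- Hoxc-/- (log2 fold change 1.33 ± 0.10, adjusted p = 6.3e-04). Cd163, a scavenger receptor gene, was at 10.7, 8.68 and 5.65 CPM and 4.22, 3.81 and 3.47 CPM (1.10, adjusted p = 0.0202). Tyrobp, a signalling adaptor, was at 7.81, 8.56 and 5.68 CPM and 2.70, 4.05 and 3.34 CPM (1.10, adjusted p = 0.0149), and Emr1, the F4/80 antigen gene, at 14.4, 14.5 and 10.7 CPM and 6.24, 6.0 and 6.92 CPM (1.02, adjusted p = 0.00602). Every double mutant was above every other library for these 4 genes. Of 15 tested, 10 were higher and 0 lower (median 0.79), and double mutants were apart from the 9 others in all 10. The median was 0.99 against wild type, with 12 higher, and 0.21 for Hoxa+/- Hoxc-/- against wild type. Summed over the list, levels were 410.3, 421 and 360.2 CPM in double mutants and 208, 219 and 241 CPM in Hoxa+/- Hoxc-/-, and the most abundant gene was Stab1, which endothelium also expresses. Of these, calls were lost for Cd163 without library 24, 27, AC110 or AC115 (adjusted p = 0.0702, 0.0535, 0.0784 and 0.0621) and for Tyrobp without library 24 (adjusted p = 0.0603), and the number called was 5 without library 24, 6 without library 27 or AC110.

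Mast cell proteases were higher as well. Cma1, a chymase gene, was at 8.60, 8.30 and 7.30 CPM in double mutants and 1.17, 1.09 and 1.29 CPM in Hoxa+/- Hoxc-/- (log2 fold change 2.74 ± 0.17, adjusted p = 2.8e-04), beside 0.689, 2.06 and 3.45 CPM in Hoxa-/- Hoxc+/- and 0.265, 0.277 and 0.346 CPM in wild type. Cpa3, which encodes a carboxypeptidase of mast cell granules, was at 10.7, 9.14 and 8.23 CPM and 2.14, 1.49 and 1.66 CPM (2.39, adjusted p = 8.2e-04), and the tryptase gene Tpsb2 at 8.57, 6.59 and 7.08 CPM and 1.49, 1.21 and 1.68 CPM (2.32, adjusted p = 9.7e-04). All 3 were above every other library in each double mutant, and passed in all 6 fits that left out a library. Cd74, the invariant chain of MHC class II, was higher by less (0.72, adjusted p = 0.0435) and lost its call without library 27, 29, AC110 or AC115 (adjusted p = 0.0923, 0.0747, 0.142 and 0.0771). The MHC class II genes H2-Aa, H2-Ab1 and H2-Eb1, named after their values were seen, missed the threshold (adjusted p = 0.276, 0.234 and 0.244), and the last 2 passed without library AC115 (adjusted p = 0.00911 and 0.0314). The list of MHC class II and mast cell genes thus had 4 higher of 7 tested (8 measured), 0 lower and a median of 1.15. Summed over this mixed list, levels were 62.4, 74.2 and 71.4 CPM in double mutants and 25.6, 21.1 and 42.2 CPM in Hoxa+/- Hoxc-/-.

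RNAs that are kept in the nucleus, and transcripts of splicing genes that often retain introns, were the list with the largest share of calls. Several members, among them Malat1, Snhg5 and Clk1, are in the study's own list of genes lower in its mutants than in wild type. The list was chosen with earlier results of these data known, so its share describes these libraries and is no independent result. Neat1, the scaffold RNA of paraspeckles, was at 4.06, 6.08 and 3.79 CPM in double mutants and 31.5, 23.6 and 26.7 CPM in Hoxa+/- Hoxc-/-, beside 22.4, 10.3 and 13.8 CPM in Hoxa-/- Hoxc+/- and 18.6, 18 and 33.9 CPM in wild type. No double mutant reached any other library (log2 fold change -2.58 ± 0.21, adjusted p = 8.2e-04). Malat1, its neighbour on chromosome 19, an RNA of nuclear speckles, was at 36.0, 44.3 and 28.5 CPM and 98.6, 77.6 and 144 CPM (-1.58, adjusted p = 0.00667). The snoRNA host gene Snhg5 was at 5.19, 5.64 and 5.21 CPM and 11.9, 15.9 and 14.6 CPM (-1.43, adjusted p = 0.00163), and Clk1, a kinase of splicing factors, at 24.8, 24.7 and 23.7 CPM and 52.7, 56.6 and 73.8 CPM (-1.35, adjusted p = 0.00132). These genes passed in all 6 fits that left out a library. Of 18 tested, 0 were higher and 17 lower, with a median log2 fold change of -1.18, and double mutants were apart from the 9 other libraries in 16. Against wild type, within run1008, 16 were lower and the median was -1.20. Against Hoxa-/- Hoxc+/- the median was -0.82. The gene not past the threshold was Luc7l2 (-0.16, adjusted p = 0.254), and leaving out any library left 14 to 17 calls. A measure of RNA quality was not analysed here, and its part in these values was not tested. Immediate early and stress genes, which respond to handling, had 0 of 12 higher and 1 lower (7.63% and 11.4% over all genes; median 0.19). The lower gene was Ier2 (-0.37, adjusted p = 0.0355), whose call was lost without library 24, 27, 29, AC110 or AC115 (adjusted p = 0.122, 0.0759, 0.0731, 0.155 and 0.126). The count of that list was 0 without library 24, 27, AC110 or AC115.

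Long noncoding RNAs in general were 4.2% of the genes tested, 13 of 1213 higher and 95 of 1814 lower (5.24%). With double mutants apart, 52 of the 781 lower genes were of this class. Over all gene classes, the 5 largest fitted falls with double mutants apart were low in level. Rgs11, a regulator of G protein signalling, was at 0.288, 0.383 and 0.302 CPM and 3.40, 2.44 and 3.12 CPM (-3.21, adjusted p = 9.4e-04). Dcdc2c, a doublecortin domain gene, was at 0.236, 0.332 and 0.165 CPM and 2.49, 1.82 and 2.14 CPM (-3.14, adjusted p = 0.00192). The noncoding Gm16973 was at 0.734, 1.05 and 0.631 CPM and 4.66, 6.98 and 8.54 CPM (-3.08, adjusted p = 0.00147), and 4930579G18Rik at 0.105, 0.179 and 0.192 CPM and 1.52, 1.04 and 1.43 CPM (-3.07, adjusted p = 0.00285). No double mutant reached any other library in these 4 genes. Ppifos, an antisense RNA of Ppif, was at 0.131, 0.0255 and 0.0549 CPM and 1.55, 0.860 and 1.18 CPM (adjusted p = 0.00392, with no fold as double mutants averaged below the floor), but since the use of strand in counting is not given in the sources used here, its reads cannot be told from those of its partner.

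In the mature nephron, the counts of both proximal tubule lists depended on Hoxa+/- Hoxc-/- AC38. Slc38a3, a glutamine transporter of the proximal tubule, was at 71.8, 95.4 and 52.5 CPM in double mutants and 45.8, 29.9 and 35.2 CPM in Hoxa+/- Hoxc-/- (0.96, adjusted p = 0.0291), a call lost without library 24, 27, AC110 or AC115 (adjusted p = 0.0843, 0.0674, 0.0986 and 0.0768). It was the 1 gene higher of 30 proximal tubule transporters tested (31 measured), with 0 lower and a median of 0.34, and the number called was 20 without library AC38 and 2 by DESeq2. Over all genes, 3441 of 16141 were called without library AC38 and 3958 of 15889 by DESeq2. Summed over the transporters, levels were 3634, 4609.9 and 2554 CPM in double mutants and 4333, 1969.5 and 1695 CPM in Hoxa+/- Hoxc-/-, so that library AC38 lay within the double mutant range. Wild type 30, 37 and 55 were at 3479.5, 1601 and 1210.2 CPM. Of 26 brush border and metabolism genes 0 passed by edgeR (median 0.45), with 7 at an unadjusted p under 0.05, 6 called by DESeq2, 1 without library 29, 17 without library AC38 and 2 with the GC correction. Over all 15889 genes tested, 5534 had an unadjusted p under 0.05. In the loop of Henle 0 of 12 passed by edgeR (median 0.57), with 6 at an unadjusted p under 0.05, 6 called by DESeq2, 3 without library 29 and 2 without library AC38. Its cotransporter gene Slc12a1 was at 739, 1132 and 649.9 CPM and 659, 490.3 and 467 CPM (0.62, adjusted p = 0.0973), and it passed without library AC38 (adjusted p = 0.0431) and by DESeq2. In distal and connecting tubule 0 of 10 passed by edgeR, at an unadjusted p under 0.05, by DESeq2 or without any 1 library (median 0.30), and Kl, which encodes klotho, was at 213, 319 and 179 CPM and 239.9, 152 and 96.4 CPM (0.52, adjusted p = 0.317).

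In the collecting duct, 2 of 14 principal cell genes were higher and 1 lower (7.63% and 11.4% over all genes; median 0.08). The lower gene was Gata3, a transcription factor of the ureteric lineage, at 44.6, 46.5 and 54.8 CPM in double mutants and 61.0, 69.1 and 59.9 CPM in Hoxa+/- Hoxc-/- (log2 fold change -0.41 ± 0.10, adjusted p = 0.0309). The water channel gene Aqp4 (0.40, adjusted p = 0.0179) and the keratin gene Krt8 (0.39, adjusted p = 0.0346) were higher, and the 3 genes did not overlap between the groups. Their calls were lost for Gata3 without library 24, 27, AC110 or AC115 (adjusted p = 0.11, 0.0836, 0.143 and 0.0659), for Aqp4 without library 29, AC110 or AC115 (adjusted p = 0.0532, 0.0664 and 0.051) and for Krt8 without library 27, 29, AC110 or AC115 (adjusted p = 0.082, 0.085, 0.107 and 0.0866). The count was 1 without library 27 or 29, 0 without library AC110 or AC115. Among 13 intercalated cell genes 0 were higher and 1 lower (7.63% and 11.4% over all genes; median 0.13). The lower gene was the bicarbonate transporter gene Slc4a9 (-0.57, adjusted p = 0.0418), whose call was lost without library 24, 29, AC38, AC110 or AC115 (adjusted p = 0.131, 0.0958, 0.0613, 0.161 and 0.0563). In the glomerulus, 2 of 14 podocyte genes were higher and 0 lower (7.63% and 11.4% over all genes; median 0.08). Among these Ptpro, a podocyte phosphatase gene, was at 115.1, 116 and 95.6 CPM in double mutants and 85.3, 86.3 and 78.9 CPM in Hoxa+/- Hoxc-/- (log2 fold change 0.36 ± 0.09, adjusted p = 0.0348). Every double mutant was above every other library, and the call was lost without library 24, 27, AC110 or AC115 (adjusted p = 0.124, 0.0906, 0.0847 and 0.0866). The counts were 0 without library 24, 29, AC110 or AC115, 2 without library AC38 and 0 with the GC correction in intercalated cells, and 0 without library 24, 27, AC110 or AC115 in podocytes.

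In vessels and other walls, 4 smooth muscle genes were higher. Acta2, smooth muscle actin, was at 555, 558 and 502 CPM in double mutants and 304, 349.5 and 357 CPM in Hoxa+/- Hoxc-/- (log2 fold change 0.65 ± 0.09, adjusted p = 0.00432). Tagln, an actin-binding protein gene, was at 177, 226 and 180.1 CPM and 106, 114 and 132 CPM (0.70, adjusted p = 0.0103), and Actg2, of visceral muscle, at 10.5, 9.99 and 7.22 CPM and 3.58, 5.0 and 3.45 CPM (1.18, adjusted p = 0.0108). Cnn1, which encodes calponin, was at 12.9, 15.7 and 13.7 CPM and 8.32, 9.68 and 8.93 CPM (0.63, adjusted p = 0.0158). These were the 4 higher of 11 tested (12 measured), with 0 lower (median 0.22). Tagln lost its call without library AC110 (adjusted p = 0.0534), and Actg2 and Cnn1 with all 12 libraries in the fit (adjusted p over the alternatives from 7.4e-06 to 0.0844 and from 2.3e-04 to 0.0772). Of 16 endothelial genes 0 were higher and 1 lower (7.63% and 11.4% over all genes; median 0.10). The lower gene was Egfl7, a secreted protein of vessels (-0.54, adjusted p = 0.0108), whose call was lost without library AC110 (adjusted p = 0.057). The number called was 3 by DESeq2 and 2 without library AC38 or with the GC correction. In the renin-angiotensin system, 1 of 5 was higher and 0 lower (median 0.51). This was Agtr2, the fetal angiotensin receptor gene on the X chromosome, at 109.5, 119.8 and 107 CPM in double mutants and 50.9, 49.5 and 60.5 CPM in Hoxa+/- Hoxc-/- (log2 fold change 1.04 ± 0.10, adjusted p = 0.0013), with wild type between them at 63.8 to 86.2 CPM. Without library AC38 that list had 2 calls. Of 10 urothelial genes 1 was higher and 0 lower (median 0.16), the uroplakin gene Upk3b, also of mesothelium, at 8.31, 23.5 and 14.2 CPM and 3.78, 5.12 and 2.80 CPM (1.95, adjusted p = 0.0154), highest in double mutant 27, with a call lost without library AC115 (adjusted p = 0.0505).

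Claudins, proteins of tight junctions, included 4 higher and 0 lower of 13 (median 0.28). Cldn11 was at 86.0, 113 and 130.5 CPM in double mutants and 52.7, 58.0 and 46.6 CPM in Hoxa+/- Hoxc-/- (log2 fold change 1.04 ± 0.16, adjusted p = 0.00608), above all other libraries in each double mutant. Cldn1 was at 205, 152 and 137 CPM and 112, 95.3 and 105 CPM (0.64, adjusted p = 0.0264), and Cldn8 (0.41, adjusted p = 0.0435) and Cldn7 (0.30, adjusted p = 0.0224) were higher by less. The calls were lost for Cldn1 without library 24, AC110 or AC115 (adjusted p = 0.0563, 0.0984 and 0.0639), for Cldn8 without library 24, 27, 29, AC38 or AC115 (adjusted p = 0.0934, 0.0969, 0.104, 0.0669 and 0.0888) and for Cldn7 without library 24, 27, AC110 or AC115 (adjusted p = 0.0798, 0.0541, 0.0787 and 0.0549), and the count was 1 without library 24 or AC115, 2 without library AC110. With the GC correction, 1 was called.

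Markers of tissues beside the kidney were looked at because a dissected organ can carry them. Erythroid genes summed to 1532, 1530.3 and 1148 CPM in double mutants and 522, 1794 and 5852 CPM in Hoxa+/- Hoxc-/-, AC115 being the highest library. Of 6 erythroid genes tested (10 measured) 0 passed by edgeR, at an unadjusted p under 0.05 or by DESeq2 (median -0.63), with 1 call without library AC38, and the most abundant, Hbb-bs, did not pass (-0.89, adjusted p = 0.397). Of 9 skeletal muscle genes 1 was higher and 0 lower (median 0.94), the actin gene Acta1, at 2.70, 3.83 and 1.26 CPM and 0.703, 0.921 and 0.519 CPM (1.83, adjusted p = 0.0269), and the list summed to 15.5, 16.4 and 7.99 CPM and 4.37, 8.52 and 8.81 CPM. Of 10 liver genes 1 was higher and 0 lower (median -0.08), the transthyretin gene Ttr (1.09, adjusted p = 0.0225), while Alb was at 8.68, 16.0 and 3.02 CPM and 7.15, 2.17 and 24.7 CPM (-0.32, adjusted p = 0.816). Of 5 adrenal genes tested (9 measured) 1 was higher and 0 lower (median -0.10), Cyp11a1 of steroid synthesis (1.64, adjusted p = 0.0487). Of 3 gonad genes tested (7 measured) 0 were higher and 1 lower (median -0.29), the inhibin gene Inha (-0.76, adjusted p = 0.0479). Of 6 nerve and Schwann cell genes tested (7 measured) 1 was higher and 0 lower (median 0.19), S100b at 0.708, 1.02 and 0.933 CPM and 0.147, 0.266 and 0.312 CPM (1.81, adjusted p = 0.0164).

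Of 3 adipose genes tested (7 measured) 0 were called by edgeR (median 0.23), with 2 at an unadjusted p under 0.05, 2 called by DESeq2 and 1 without library AC38, and Fabp4 was at 275, 268 and 251 CPM and 218, 211 and 236 CPM (0.23, adjusted p = 0.0787). Of 4 cartilage and tendon genes tested (6 measured) 1 was higher, the matrix gene Comp (2.01, adjusted p = 0.0474), and 1 lower, the tendon transcription factor gene Scx (-1.11, adjusted p = 0.0261), with a median of -0.74. Every call of these tissue lists was lost in some fit that left out a library. This held for Acta1 without library 24, 27, AC110 or AC115 (adjusted p = 0.0836, 0.0737, 0.0689 and 0.081) and Ttr without library 24, 27, AC110 or AC115 (adjusted p = 0.0739, 0.0528, 0.0886 and 0.0501). It also held for Cyp11a1 without library 24, 27, 29, AC110 or AC115 (adjusted p = 0.0762, 0.0604, 0.122, 0.151 and 0.133), Inha without library 24, 27, 29, AC38, AC110 or AC115 (adjusted p = 0.0886, 0.0885, 0.0691, 0.0559, 0.153 and 0.138) and S100b without library 27 or AC110 (adjusted p = 0.0527 and 0.0706). In the last list Comp lost its call without library 24, 27, 29 or AC110 (adjusted p = 0.123, 0.118, 0.0708 and 0.155) and Scx without library 24, 27, AC110 or AC115 (adjusted p = 0.0968, 0.0662, 0.0723 and 0.0824). The skeletal muscle list had 3 calls without library 29, 5 by DESeq2 and 5 at an unadjusted p under 0.05. With the GC correction, the adrenal list had 0 calls and the cartilage and tendon list 1. The part of these tissues in the other results was not tested. Among 4 genes of the Mettl7a cluster, near-identical methyltransferase genes on chromosome 15 whose reads are uncertain, 0 passed by edgeR, at an unadjusted p under 0.05 or by DESeq2 (median 0.61), and Mettl7a1 was at 45.7, 61.4 and 33.1 CPM and 48.3, 37.2 and 31.5 CPM (0.24, adjusted p = 0.515).

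The largest fitted log2 fold changes came from genes in which the run1646 libraries stood apart. Gm13841, a pseudogene at chr5:115801543-115802209, was at 54.7, 46.6 and 47.6 CPM in double mutants and at 0, 0.0205 and 0.0416 CPM in Hoxa+/- Hoxc-/-, beside 42.7, 54.9 and 61.6 CPM in wild type. The pseudogenes Gm14150, Rpl3-ps2 and Gm18683 had 0 counts in all 3 Hoxa+/- Hoxc-/- libraries, as did 6330411D24Rik and Gm2619. Double mutants were at 7.31, 6.79 and 2.55 CPM for Gm14150 (at least 78.7-fold higher) and 4.22, 4.16 and 4.31 CPM for Rpl3-ps2 (at least 60.0-fold). They were at 2.94, 2.04 and 3.05 CPM for Gm18683 (at least 37.9-fold), 2.78, 2.25 and 3.54 CPM for 6330411D24Rik (at least 40.5-fold) and 1.81, 1.43 and 1.95 CPM for Gm2619 (at least 24.5-fold). The bound uses the floor of 3 counts per library averaged over the group, and no fold is given where a group's mean lay above 0 but below it. Gm14150 differed from the rest in being low in wild type as well, at 0.106, 0.231 and 0.396 CPM. Ftl2, a ferritin pseudogene, was at 12.5, 15.2 and 12.3 CPM and 0.0293, 0.0409 and 0.0208 CPM (adjusted p = 6.6e-06), and the pseudogene Gm15459 at 293, 280.4 and 291 CPM and 3.43, 2.89 and 2.18 CPM (6.66, adjusted p = 2.6e-06). The noncoding Gm8016 was at 94.2, 94.2 and 43.3 CPM and 0.0879, 0 and 0.0831 CPM (adjusted p = 2.3e-04) and Gm5506 at 3.17, 3.58 and 4.03 CPM and 0.0586, 0.0409 and 0 CPM (adjusted p = 6.3e-04).

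Falls of the same kind were found as well. Gm20594 was at 0 CPM in the double mutants and all 6 libraries of the other genotypes and at 2.11, 1.23 and 2.45 CPM in Hoxa+/- Hoxc-/- (at least 24.4-fold lower in double mutants). Gm14295, a zinc finger family gene, was at 1.23, 1.38 and 1.07 CPM in double mutants and 31.2, 44.4 and 45.5 CPM in Hoxa+/- Hoxc-/- (-5.06, adjusted p = 2.6e-05). Nlrp1a, an inflammasome sensor gene with close copies, was at 0.210, 1.17 and 0.110 CPM and 6.07, 9.48 and 13.9 CPM (-4.30, adjusted p = 0.00814). Wild type lay beside the double mutants, at 1.14 to 1.62 CPM of Gm14295 and 0.717 to 1.06 CPM of Nlrp1a. The pseudogenes Gm8580 (adjusted p = 9.8e-04) and Olfr856-ps1 (-4.54, adjusted p = 2.8e-04), LOC101056185 (-3.53, adjusted p = 0.00148) and the noncoding 4930470H14Rik (-3.30, adjusted p = 6.8e-04) were likewise higher in all 3 run1646 libraries. Among ribosomal protein genes, Rpl29 was at 65.5, 57.6 and 64.0 CPM in double mutants and 403, 424 and 451 CPM in Hoxa+/- Hoxc-/- (log2 fold change -2.80 ± 0.09, adjusted p = 6.6e-06), with 59.7 to 71.5 CPM in wild type. The part of reads shared between genes and their copies was not tested, and genes with close copies are reported as uncertain. Genotype and run cannot be told apart for these genes, except that against wild type, within run1008, Gm14150 was also higher (4.48, adjusted p = 0.00442) and 4930470H14Rik lower (-1.62, adjusted p = 0.0347).

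Pseudogenes were 0.875% of the genes tested and 29 of the 522 called with a fold change above 2 (5.56%). With the run1646 libraries apart they were 13 of 480 genes higher and 7 of 467 lower in double mutants, and with double mutants apart 2 of 469 and 4 of 781. Summed over all pseudogenes, levels were 1429.7, 1327 and 1288 CPM in double mutants, 822, 899 and 872 CPM in Hoxa+/- Hoxc-/- and 1332, 1391 and 1458 CPM in wild type, lowest in the run1646 libraries. Base composition and exon length also differed with the class of call. The median GC content was 49.94% over all genes tested with a value (15047 of 15889), and 49.58% and 49.77% for genes higher and lower with double mutants apart. With the run1646 libraries apart it was 42.77% for genes higher and 54.23% for genes lower in double mutants. Median exon length was 4378 bases over all genes, 3890 for all higher and 6796 for all lower calls, 4252.5 and 6114.5 with double mutants apart, and 4122.5 and 7412 with the run1646 libraries apart. The part of GC content and length in the calls was not tested beyond the correction for both, under which 2451 genes were called.

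**Figure D4:**
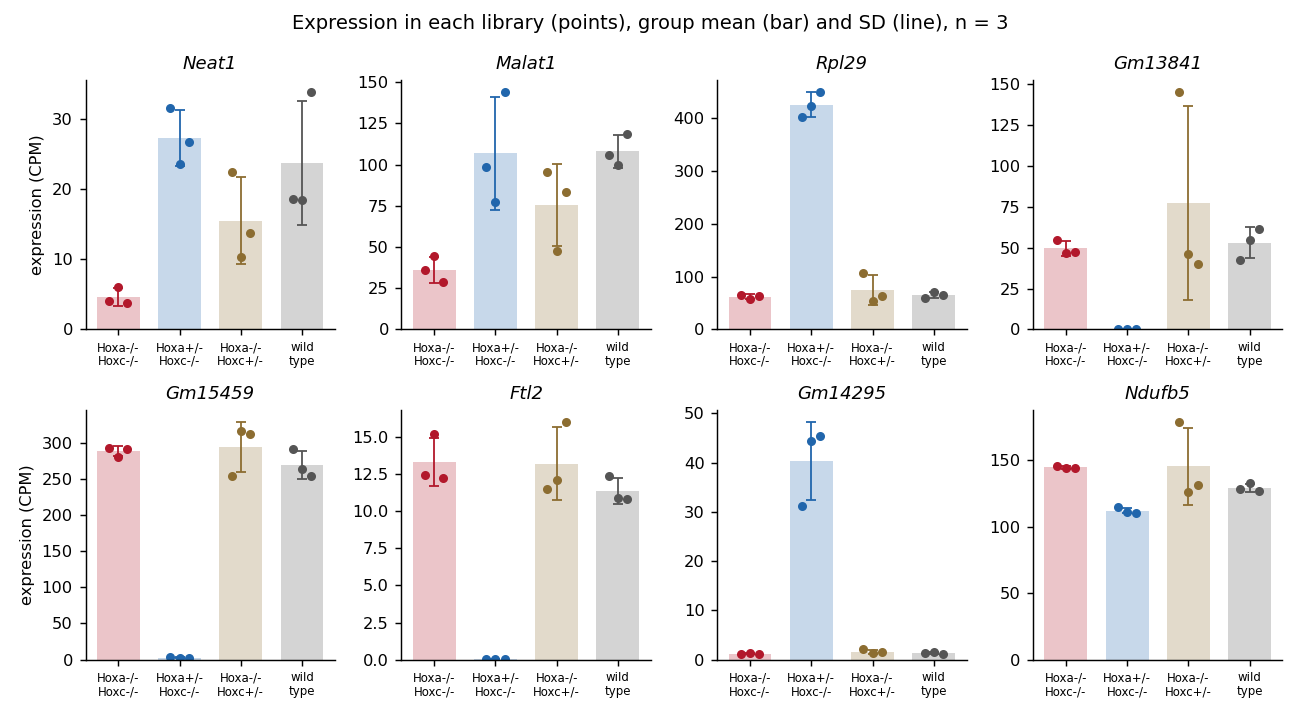
CPM of Neat1, Malat1, Rpl29, Gm13841, Gm15459, Ftl2, Gm14295 and Ndufb5 in each of the 12 libraries, with points for libraries, a bar for the mean and whiskers for the SD over 3 libraries. For Neat1 and Malat1 the double mutants are lowest, and for the other 6 genes the Hoxa+/- Hoxc-/- libraries, from run1646, lie apart from the 9 libraries of run1008.

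The run1646 libraries also stood apart for some genes of the respiratory chain. Ndufb5, a subunit of complex I, was at 146, 144 and 144 CPM in double mutants and 114.6, 111 and 111 CPM in Hoxa+/- Hoxc-/-, with 127 to 133 CPM in wild type between them (log2 fold change 0.34 ± 0.06, adjusted p = 0.0113). The subunit genes Atp5h (0.33, adjusted p = 0.0221), Atp5g3 (0.32, adjusted p = 0.024) and Ndufc2 (0.32, adjusted p = 0.0219) were higher by similar amounts. Of 84 nuclear oxidative phosphorylation genes tested (89 measured), 17 were higher and 0 lower (median 0.18), and the Hoxa+/- Hoxc-/- libraries were apart in 12 of the 17 against 1 for double mutants. Against wild type, within run1008, the median was 0.02 with 1 gene higher. Calls were lost for Ndufb5 without library 24 or AC110 (adjusted p = 0.0539 and 0.0547) and for Atp5h without library 24, 29 or AC110 (adjusted p = 0.0843, 0.0558 and 0.0997), and also for Atp5g3 without library 24, 29, AC110 or AC115 (adjusted p = 0.0841, 0.0511, 0.104 and 0.0548) and for Ndufc2 without library 24 or AC110 (adjusted p = 0.0901 and 0.087). In all, the number called was 0 without library 24 or AC110, 8 without library 27, 5 without library 29, 4 without library AC115, 29 by DESeq2 and 4 with the GC correction. Of 73 cytosolic ribosomal protein genes (76 measured), 2 were higher and 1 lower (median 0.13, beside -0.14 against wild type). The 2 higher were Rpl10 (0.38, adjusted p = 0.025), lost without library 24, 29 or AC110 (adjusted p = 0.0962, 0.0764 and 0.116), and Rpl37 (0.37, adjusted p = 0.0466), lost without library 24, 29, AC38 or AC110 (adjusted p = 0.155, 0.115, 0.0858 and 0.165), and the 1 lower was Rpl29. The list's count was 1 without library 24, 29 or AC110, 6 without library 27, and 8 by DESeq2.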

How the data were processed

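RNA of whole kidneys at embryonic day 18.5 was sequenced as paired-end reads. In the authors' processing, reads were mapped to mouse build mm10 in Strand NGS and reads aligning to more than 1 position were removed; the aligner settings, the annotation and the strand setting were not given in the sources used here. The deposited expected counts per gene, which hold fractions, were rounded to whole numbers here. The deposited log2 values, normalized by the authors, served in 1 alternative only. Groups were taken from the sample titles, and 12 count columns were used. Of 36186 genes listed, 92 symbols occurred more than once and were kept as separate genes. Replicates were checked for duplicate deposits, and none was found (lowest median chi-square per gene between replicates 2.62).

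Genes were tested with edgeR 4.0.16 in R 4.3.3 (TMM factors, filterByExpr with a minimum count of 10 and a total of 15, quasi-likelihood test), and p-values were adjusted by the Benjamini-Hochberg method over all genes tested, with a threshold of 0.05. The ± after a log2 fold change is its SE. All other contrasts were fitted alike, 1 pair of groups at a time. CPM values were scaled with TMM factors over all 12 libraries. Tables were handled with Python 3.11.15 and pandas 2.3.3, and plots drawn with matplotlib 3.10.9. On counts simulated for the comparison of double mutants with Hoxa+/- Hoxc-/- (15747 genes), the test called 86 of 100 genes changed 2-fold and 97 of 100 changed 4-fold, and 5.18% of its calls were false. Changed genes were drawn only from those with a mean of at least 50 counts, and no run difference was simulated. The 5.18% is therefore not the share of false calls among those reported here.

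Members and gene lists were chosen with earlier results of these data known. Genes were named by rule: all Hox9 to Hox11 paralogs; in each list the 4 called members with the largest log2 fold change, or the most abundant tested member where none was called; the 10 largest rises and falls without overlap and with a mean of at least 50 counts in the higher group; the 5 largest rises and falls of each class with 1 group apart; 14 genes of matrix, progenitors and the imprinted region; and Xist with 4 Y-linked genes. Other genes were chosen after their values were seen. Some genes that the rule selects are not reported here. As alternatives, size factors were replaced by RLE factors or by library size alone, and the tests by DESeq2 1.42.0; others were a minimum of 1 count, a minimum of 10 RPKM in 3 of 12 libraries, all 12 libraries in the fit, limma 3.58.1 on the deposited log2 values, Xist as a covariate (prior CPM 0.5), a correction for GC content and exon length (20 quantile bins, known for 94.7% of genes tested), and leaving out each library in turn. For the side contrasts, DESeq2 and leaving out Hoxa-/- Hoxc+/- 20 were chosen after seeing the data. So was leaving out that library in the counts with 1 group apart. Promoters came from RefSeq (GRCm38.p6, the assembly of mm10), which matched 33006 genes.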

Additional observations from a re-analysis of the deposited data

How the results depend on the processing

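With double mutants against Hoxa+/- Hoxc-/- the number of called genes was 3022 with RLE factors, 3143 with library size only, 2822 with a minimum of 1 count, 2096 with limma, 2052 with the Xist covariate and 2451 with the GC and length correction, all within 1.5 times the count given. It was 1174 (473 higher, 701 lower, 37 beyond 2-fold) with the RPKM minimum, which left 5861 genes to test, and 1944 (1118 lower) with all 12 libraries in the fit. DESeq2 called 3958 genes, 1870 of them higher, and the Xist covariate had 762 higher. Leaving out 1 library gave 888 to 3441 called genes, 312 to 1690 higher, 576 to 1751 lower and 290 to 663 beyond 2-fold. For the other contrasts DESeq2 called 554 genes for double mutants against Hoxa-/- Hoxc+/- (687 by edgeR without library 20), 3380 for double mutants and 1318 for Hoxa+/- Hoxc-/- against wild type. The causes were not tested. Of 135 called named genes, 84 passed the threshold under every alternative in which they were tested (the RPKM minimum left some untested), 67 without each library in turn, and 62 under both. With 12 libraries in the fit 36 lost their call, among them Hoxa9, Hoxd11, Mycn, Fgf8, Pax8, Notch1, Maml3, Lama2, Id4, Rara, Igfbp6, Igfbp5, Rtl1, Cdkn1c, Sgce, Slc38a3, Gata3, Aqp4, Ptpro, Actg2, Cnn1, Cldn8, Cd74, Ttr, Acta1, Cyp11a1, Inha, Scx, Ier2, Rpl10, Rpl37, Ndufb5, Atp5h and Ndufc2. With limma 35 did, among them Hoxa9, Hoxd11, Sall1, Myb, Mycn, Fgf8, Pax8, Notch1, Col11a2, Col6a5, Lama2, Id4, Bmpr1a, Rara, Igfbp6, Igfbp5, Sgce, Slc38a3, Gata3, Krt8, Slc4a9, Ptpro, Cldn1, Cldn8, Cd74, Acta1, Cyp11a1, Inha, Comp, Mki67, Foxm1, Ier2 and Rpl37. The Xist covariate ended 26 calls, all but that of Scx among those lost with limma. The GC and length correction ended 24, among them Hoxa9, Myb, Pax8, Notch1, Notch4, Id4, Rara, Igf1r, Sgce, Krt8, Slc4a9, Cldn1, Cldn8, Cldn7, Cd74, Cyp11a1, Comp, Foxm1, Rpl10, Rpl37, Atp5h, Atp5g3 and Ndufc2. Library size only ended 10, the RPKM minimum 6, the minimum of 1 count 2 and RLE factors 1. Log2 fold changes of 10 named genes, none of them called, changed sign. Hoxd9 was at 0.02 with 12 libraries, 0.01 with DESeq2, RLE factors and limma, and 0.05, 0.01 and 0.08 without library 24, 29 and AC115 (lowest -0.07, without 27). With the Xist covariate Ddx3y was at 0.54, Eif2s3y at 0.12 and Uty at 0.07. Xist was at 2.60 with limma, and from -1.94 to 8.97 (without library AC110) over the fits without 1 library. In the same fits Hbb-bs ranged from -1.36 to 0.41, Hoxb9 from -0.31 to 0.00, Hoxc9 from -0.24 to 0.07 and Hoxd10 from -0.18 to 0.10, each highest without library AC115, and Hoxd10 was at 0.02 without library 24. Ddx3y ranged from -9.85 to 0.06 (without library 27; 0.05 without 29) and Mettl7a1 from -0.01 (without library 27) to 0.43. No paired analysis was possible because the groups share no replicate numbers in the labels. Genotype and sequencing run cannot be told apart in this comparison, and 3 libraries a group limit each call.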
